A study of Homo sapiens with 16 samples.

Results

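Gemcitabine is a deoxycytidine analog that has to be phosphorylated inside the cell before it acts. The 10 genes described here encode enzymes around that route. *DCK* and *CMPK1* activate it, *CDA*, *DCTD* and *NT5C* deaminate or dephosphorylate it or its monophosphate, and *SAMHD1* degrades dNTPs. *RRM1*, *RRM2*, *RRM2B* and *TYMS* encode subunits of ribonucleotide reductase and thymidylate synthase, the enzymes that its metabolites inhibit. The 10 genes were taken for these known roles. All 10 were found among the 39007 symbols of the expression table, and all 10 were among the 13249 genes with a mean above 1 CPM (read counts as a share of all counts in the library) that were tested. The table covers 16 RNA-sequencing libraries, 4 for each of the phases P0 (parental), P3 (early), P7 (intermediate) and P15 (late). P0 is T24, an established human bladder cancer cell line, and P3, P7 and P15 are later phases of GRC1, a gemcitabine-resistant line that was derived from T24 by repeated rounds of exposure to gemcitabine, regrowth as colonies and expansion in DMEM. All libraries carry the cell line label T24 and the tissue label bladder cancer, and cells of all phases were grown in DMEM with fetal bovine serum and penicillin-streptomycin. The time between the last exposure and the RNA extraction is not given in the sources used here. Every library title carries the tag NT, whose meaning is not given either. GRC1 is 1 derived line, and the labels do not say whether the libraries of a phase are separate cultures, so the p-values measure the spread between these libraries, which may be technical.

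Deoxycytidine kinase (*DCK*) adds the first phosphate to gemcitabine and is the step that limits its activation, and UMP/CMP kinase (*CMPK1*) adds the next one. The diphosphate inhibits ribonucleotide reductase, whose large subunit is *RRM1* and whose small subunit is *RRM2* in dividing cells or the p53-inducible *RRM2B*, and the triphosphate is built into DNA in place of dCTP. Cytidine deaminase (*CDA*) turns the nucleoside into an inactive uridine form, deoxycytidylate deaminase (*DCTD*) acts on the monophosphate, the 5′-nucleotidase *NT5C* can remove the monophosphate, and *SAMHD1* is a triphosphohydrolase that degrades dNTPs. The deaminated monophosphate inhibits thymidylate synthase (*TYMS*), which makes dTMP.

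The values are log2(CPM + 1), so that a difference of 1 is a 2-fold change of CPM + 1 and understates the change of a gene near 1 CPM. Judged from the steps between the lowest values, libraries held 33.7 to 50 M counts, and 1 count was worth 0.02 to 0.0297 CPM. Libraries of the same phase differed from each other by a median of 0.06 to 0.1 on the log2 scale, and libraries of different phases by 0.18 to 0.58. Differences between phases were tested with limma and Benjamini-Hochberg adjustment over all tested genes, and a gene is said to have risen or fallen where the adjusted p was below 0.05. Markers of urothelium and epithelium were present in part. The summed level of 15 urothelial and epithelial markers was 2145.5 to 2219.85 CPM in P0 and 678.72 to 758.05 CPM in P15. In P15 vs P0, 6 of its 7 tested genes fell (40.9% of all tested genes), while *KRT18* rose by 0.42 (limma, adjusted p = 7.4e-11). *UPK1A*, which was too low to be tested, went from a mean log2 value of 0.1 in P0 to 1.57 in P15. *KRT5*, *KRT20*, *UPK1B*, *UPK3A*, *TP63* and *CDH1* were at or near 0 in every phase. The 4 markers of leukocytes summed to 0.08 to 8.5 CPM. *PTPRC* and *CD3E* were at or near 0, whereas *CD14* had mean log2 values of 2.96, 1.56, 2.77 and 0.08 in P0, P3, P7 and P15. Those of endothelium summed to 0.25 to 7.95 CPM, with *CDH5* at a mean log2 value of 2.74 in P0 and 0.28 or less later. Fibroblast markers summed to 1.68 to 5.77 CPM before P15 and 23.62 to 26.43 CPM in P15, mostly *COL1A1*. The part of the epithelial change in the results below was not tested.

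Promoters are shown for 5 members, namely *DCK* and *SAMHD1*, which fell by 2-fold or more in P15, and *RRM1*, *RRM2* and *TYMS*, which rose in P3 and fell in P7 and again in P15. Each is the 250 bases before the RefSeq start of the gene on GRCh38.p14, written 5′ to 3′ along the gene's strand. The gene spans given below are from GENCODE 44 and can start further upstream. The windows of *DCK* and *RRM2* lie inside these spans, and that of *SAMHD1* does so in part. Capitals mark matches on either strand to a CCAAT box (CCAAT), a GC box (GGGCGG) or an E2F motif (TTTCGCGC, TTTGGCGC, TTTCCCGC or TTTGCCGC).
*DCK*, chr4:70993399-70993648, plus strand: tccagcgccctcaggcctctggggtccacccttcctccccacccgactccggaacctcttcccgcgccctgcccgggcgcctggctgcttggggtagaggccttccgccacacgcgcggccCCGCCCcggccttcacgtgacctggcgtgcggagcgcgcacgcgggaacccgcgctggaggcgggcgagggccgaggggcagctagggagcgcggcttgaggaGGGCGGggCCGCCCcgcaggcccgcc
*SAMHD1*, chr20:36951709-36951958, minus strand: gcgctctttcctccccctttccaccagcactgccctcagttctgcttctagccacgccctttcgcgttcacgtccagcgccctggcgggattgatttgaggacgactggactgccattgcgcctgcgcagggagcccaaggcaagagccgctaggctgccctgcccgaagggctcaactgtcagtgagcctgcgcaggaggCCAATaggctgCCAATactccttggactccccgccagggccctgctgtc
*RRM1*, chr11:4094435-4094684, plus strand: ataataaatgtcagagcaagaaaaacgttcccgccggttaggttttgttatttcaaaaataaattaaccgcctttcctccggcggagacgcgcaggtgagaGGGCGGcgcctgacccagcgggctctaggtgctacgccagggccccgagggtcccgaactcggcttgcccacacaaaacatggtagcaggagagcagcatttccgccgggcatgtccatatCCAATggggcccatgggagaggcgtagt
*RRM2*, chr2:10122489-10122738, plus strand: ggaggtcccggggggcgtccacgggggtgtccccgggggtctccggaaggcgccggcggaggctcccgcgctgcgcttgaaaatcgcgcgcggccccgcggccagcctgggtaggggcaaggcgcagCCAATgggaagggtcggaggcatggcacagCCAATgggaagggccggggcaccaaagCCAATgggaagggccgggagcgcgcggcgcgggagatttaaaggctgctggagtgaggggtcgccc
*TYMS*, chr18:657403-657652, plus strand: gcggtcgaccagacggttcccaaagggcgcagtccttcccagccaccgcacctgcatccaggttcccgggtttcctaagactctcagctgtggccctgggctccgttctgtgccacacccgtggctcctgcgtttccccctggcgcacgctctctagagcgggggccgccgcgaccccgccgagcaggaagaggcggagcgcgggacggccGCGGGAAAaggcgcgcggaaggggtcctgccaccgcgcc
The *RRM2* promoter held 3 CCAAT boxes, that of *SAMHD1* held 2 and that of *RRM1* held 1 together with 1 GC box. A CCAAT box was present in 32.0% of 35116 RefSeq promoter windows of this length. The *DCK* window held 3 GC boxes, against 42.6% of windows with at least 1, and the *TYMS* window held 1 E2F motif, a match found in 2.8% of windows. These are matches of letters and were not tested as binding sites. Of the other members, *CMPK1*, *CDA*, *DCTD* and *NT5C* had an entry, with 2 GC boxes each in *DCTD* and *NT5C* and no match in *CMPK1* and *CDA*, and *RRM2B* had none.

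The activating kinase *DCK* (GRCh38 chr4:70992538-71030914) was slightly higher in P3 and P7 than in P0 and then fell by more than 2-fold in P15. Its log2(CPM + 1) values in replicates 1 to 4 were 5.76, 5.96, 5.85 and 5.74 in P0 and 6.05, 6.04, 6.17 and 6.0 in P3. They were 5.95, 6.10, 6.0 and 5.96 in P7 and 4.75, 4.71, 4.69 and 4.79 in P15. Every P15 library was therefore below every library of the other phases, whereas P0 and P7 overlapped. The mean level was 55.89 ± 4.02 CPM in P0, 66.01 ± 3.47 in P3, 63.17 ± 3.10 in P7, with 25.64 ± 0.82 in P15 (SD, n = 4). *DCK* rose by a log2 fold change of 0.24 (SE 0.05) in P3 vs P0 (limma, adjusted p = 0.00017). It did not change detectably between P3 and P7, with a difference of -0.06 and a 95% interval of -0.16 to 0.04 (adjusted p = 0.29). In P15 vs P7 it fell by 1.27 on the log2 scale (SE 0.05, adjusted p = 1.2e-17), and in P15 vs P0 by 1.09 (SE 0.05, adjusted p = 2.8e-16). *DCK* shares 6.4% of its exon bases with *MOB1B* on the same strand, and *MOB1B*, a regulator of Hippo pathway kinases, was higher by 0.24 in P15 vs P0. In bulk RNA, fewer cells that express a gene and less RNA per cell cannot be told apart, which holds for every difference given here.

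*CMPK1* (chr1:47333790-47394866), which adds the second phosphate, did not share the late decrease below P0. It was 7.33 to 7.38 in P0, 7.56 to 7.61 in P3, 7.63 to 7.68 in P7, with 7.34 to 7.39 in P15. The 2 middle phases were above P0 and P15 without overlap, and P0 and P15 covered the same range. *CMPK1* rose by 0.23 (SE 0.03) in P3 vs P0 (limma, adjusted p = 8.2e-08) and fell by 0.27 in P15 vs P7 (adjusted p = 1.3e-09). The difference between P15 and P0 was 0.01 with a 95% interval of -0.04 to 0.07 (adjusted p = 0.61), so that a change of *CMPK1* as large as that of *DCK* lies outside its interval. With quantile normalization the difference was 0.07 (adjusted p = 0.026). The plot of values by library shows both kinases and the other 8 genes.

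**Figure D1:**
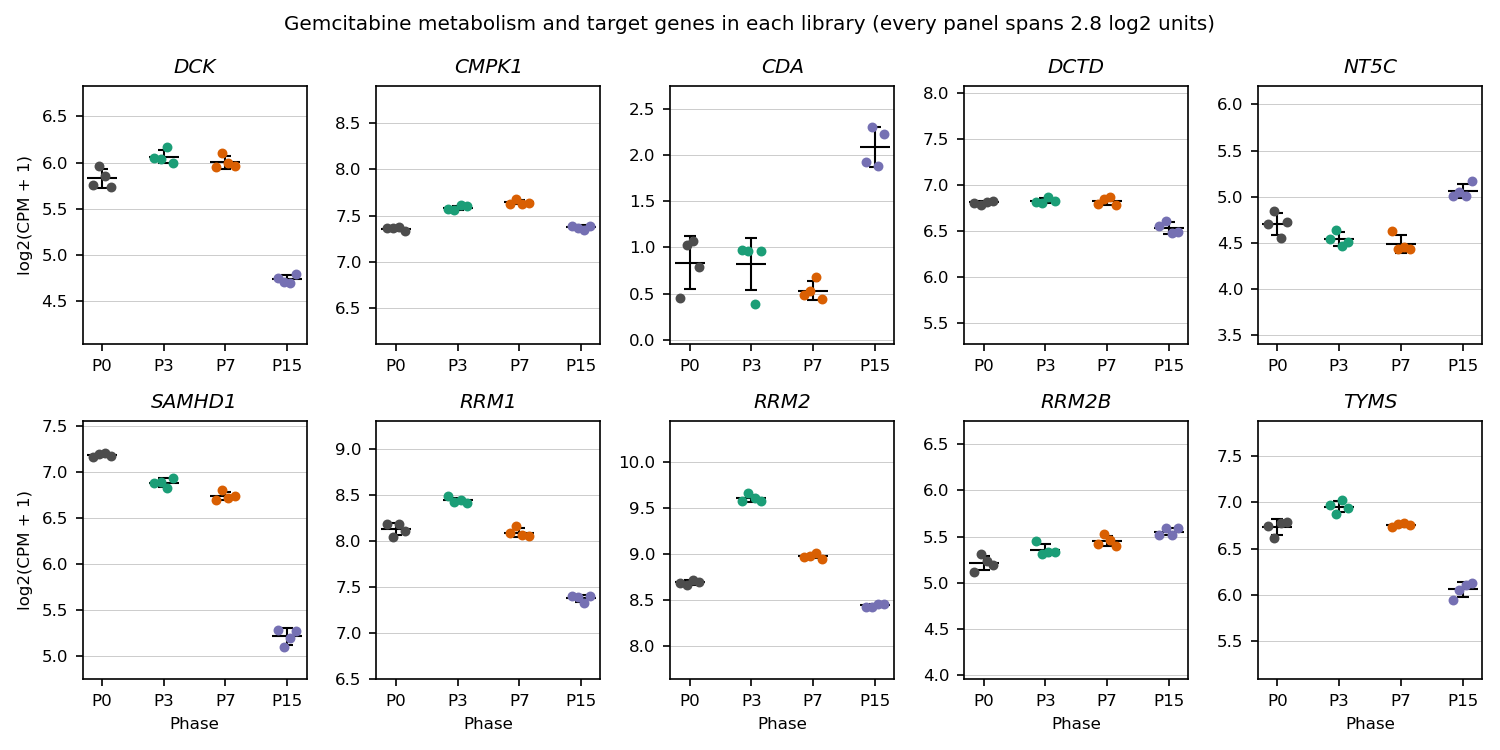
Log2(CPM + 1) of the 10 genes in each library (points, 4 per phase), with the phase mean (bar) and SD (whiskers, n = 4); every panel spans 2.8 log2 units. *DCK* and *SAMHD1* are lowest and *CDA* highest in P15, and *RRM2* is highest in P3, each without overlap with the other phases.

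Among the deaminases, *CDA* (chr1:20589086-20618903) had the lowest level of all 10 genes and rose in P15. Its values were 0.45, 1.03, 1.07 and 0.79 in P0 and 0.97, 0.96, 0.39 and 0.96 in P3. They were 0.48, 0.53, 0.68 and 0.44 in P7 and 1.93, 2.31, 1.88 and 2.23 in P15. The first 3 phases overlapped and all P15 libraries stood above them. In CPM the means were 0.81 ± 0.34 in P0, 0.79 ± 0.32 in P3, 0.45 ± 0.11 in P7, with 3.29 ± 0.63 in P15 (SD, n = 4). The P15 mean was thus 4.06 times the P0 mean and 7.31 times the P7 mean on the CPM scale. On the log2(CPM + 1) scale *CDA* rose by 1.55 (SE 0.14) in P15 vs P7 (limma, adjusted p = 3.1e-10) and by 1.25 (SE 0.14) in P15 vs P0 (adjusted p = 1.6e-08). With a mean of 1.333 CPM over the 16 libraries, *CDA* passed the filter of 1 CPM only through P15. Its selection for testing was therefore not independent of this rise. Before P15 no change passed the threshold: the difference was -0.01 in P3 vs P0 with a 95% interval of -0.31 to 0.28 (adjusted p = 0.93), and -0.29 in P7 vs P3 with an interval of -0.58 to 0.01 (adjusted p = 0.088). That last difference depended on P3 replicate 3, without which *CDA* was lower in P7 by -0.43 (adjusted p = 0.0099). P7 vs P0 likewise passed, at -0.43 (adjusted p = 0.011), without P0 replicate 1, which was the lowest *CDA* library of its phase, and at -0.30 (adjusted p = 0.041) without P3 replicate 3. The size of the *CDA* change is also set by the pseudocount, and in P15 vs P0 it was 1.97 with a pseudocount of 0.1 and 0.51 with 5.

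*DCTD* (chr4:182890060-182917936), which deaminates dCMP and the gemcitabine monophosphate, stayed between 6.78 and 6.87 in all 12 libraries of P0, P3 and P7 and was 6.48 to 6.61 in P15. It fell by 0.28 (SE 0.03) in P15 vs P0 (limma, adjusted p = 3.9e-08) and by 0.29 in P15 vs P7 (adjusted p = 1.8e-08), both below 2-fold. The 95% intervals of the earlier differences were within 0.1 of zero on either side, with adjusted p-values of 0.61 to 0.86. The 2 deaminases therefore moved in opposite directions in P15.

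The phosphohydrolases also moved apart in P15. *SAMHD1* (chr20:36890229-36951893) fell at every step and had the largest change of the 10 genes in P15 vs P0 on the log2(CPM + 1) scale. In the ratio of mean CPM, given above for *CDA* and below for *SAMHD1*, the change of *CDA* was about as large. *SAMHD1* was 7.16, 7.20, 7.21 and 7.17 in P0 and 6.88, 6.89, 6.83 and 6.94 in P3. It was 6.70, 6.80, 6.72 and 6.74 in P7 and 5.29, 5.10, 5.20 and 5.28 in P15. No phase overlapped with the next. The mean level went from 144.53 ± 2.40 CPM in P0 over 117.24 ± 3.70 in P3 and 105.93 ± 3.23 in P7 to 36.26 ± 2.24 in P15 (SD, n = 4). *SAMHD1* fell by 0.30 in P3 vs P0 (SE 0.04, limma, adjusted p = 3.5e-07), by 0.15 in P7 vs P3 (adjusted p = 0.0028) and by 1.52 in P15 vs P7 (adjusted p = 2.9e-21). From P0 to P15 it fell by 1.97 (SE 0.04, adjusted p = 1.8e-23), and the P15 mean was 0.25 of the P0 mean in CPM. *TLDC2*, which overlaps 9.9% of its exon bases on the opposite strand, had a mean of 0.482 CPM.

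*NT5C* (chr17:75130225-75131757), the cytosolic deoxyribonucleotidase, which removes the phosphate from deoxynucleoside monophosphates, was 4.55 to 4.84 in P0, 4.46 to 4.64 in P3, 4.43 to 4.63 in P7, with 5.01 to 5.17 in P15. All P15 libraries were above all others, and the earlier phases overlapped. *NT5C* rose by 0.58 (SE 0.06) in P15 vs P7 (limma, adjusted p = 6e-09) and by 0.35 (SE 0.06) in P15 vs P0 (adjusted p = 1.2e-05). It fell by 0.17 (SE 0.06) in P3 vs P0 (adjusted p = 0.02), a call that was lost with quantile normalization (adjusted p = 0.06), with a filter that kept every gene above 0 (0.055) and without P0 replicate 2 (0.088) or P3 replicate 3 (0.069). *NT5C* shares 57.1% of its exon bases with an unnamed gene model on the opposite strand that is not listed in the table, and 3.1% with *ARMC7*, which fell by 0.80 in P15 vs P0. Whether reads were counted by strand is not given in the sources used here.

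The target enzymes rose together in P3. *RRM2* (chr2:10120698-10211725), the small subunit of ribonucleotide reductase that is made in S phase, had the largest early change of the 10 genes. Its values were 8.69, 8.66, 8.72 and 8.70 in P0 and 9.58, 9.66, 9.61 and 9.58 in P3. They were 8.97, 8.98, 9.01 and 8.95 in P7 and 8.43, 8.43, 8.46 and 8.46 in P15. All phases were separate, with P3 highest and P15 lowest. In CPM, *RRM2* averaged 412.76 ± 7.15 in P0, 779.29 ± 20.59 in P3, 503.13 ± 8.76 in P7, with 347.52 ± 4.18 in P15 (SD, n = 4). It rose by 0.92 (SE 0.03) in P3 vs P0 (limma, adjusted p = 7.3e-19), just under 2-fold, fell by 0.63 in P7 vs P3 (adjusted p = 2.4e-15) and by 0.53 in P15 vs P7 (adjusted p = 2.8e-15). The P7 level was still higher than P0 by 0.28 (adjusted p = 2.5e-09), and P15 was lower than P0 by -0.25 (adjusted p = 7.7e-09).

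*RRM1* (chr11:4094707-4138932), the large subunit that binds the nucleotide substrates, was also highest in P3 and lowest in P15, with a smaller rise and a larger late decrease, but its P7 level was not above P0. It was 8.18, 8.04, 8.18 and 8.11 in P0 and 8.48, 8.42, 8.44 and 8.41 in P3. In P7 it was 8.08, 8.16, 8.06 and 8.05, and in P15 it was 7.40, 7.39, 7.32 and 7.40. P3 was highest and P15 lowest without overlap, and P0 and P7 overlapped. *RRM1* rose by 0.31 (SE 0.03) in P3 vs P0 (limma, adjusted p = 2.5e-08) and fell by 0.35 in P7 vs P3 (adjusted p = 6.7e-09) and by 0.71 in P15 vs P7 (adjusted p = 9.6e-16). P15 was lower than P0 by -0.75 (SE 0.03, adjusted p = 3.5e-16), and the P7 level differed from P0 by -0.04 with a 95% interval of -0.11 to 0.03 (adjusted p = 0.32).

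*RRM2B*, the p53-inducible small subunit that supplies dNTPs outside S phase, was higher in each later phase than in P0, by less than 2-fold. It ranged from 5.12 to 5.31 in P0, 5.31 to 5.45 in P3, 5.40 to 5.53 in P7, with 5.52 to 5.59 in P15. Neighbouring phases touched or overlapped, while P15 lay wholly above P0 and P3. The rise was 0.14 (SE 0.05) in P3 vs P0 (limma, adjusted p = 0.0085) and 0.34 (SE 0.05) in P15 vs P0 (adjusted p = 2.4e-07). The step from P3 to P7 was 0.10 and did not pass (adjusted p = 0.073). The step from P7 to P15 was 0.10 (adjusted p = 0.041), and this call was lost under 9 of 27 alternatives, among them the one in which all libraries were given 1 common median (0.06, adjusted p = 0.21).

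*TYMS* (chr18:657653-673578), which makes the thymidine nucleotide for DNA, was 6.75, 6.61, 6.78 and 6.79 in P0 and 6.97, 6.88, 7.03 and 6.94 in P3. It was 6.73, 6.77, 6.78 and 6.76 in P7 and 5.94, 6.05, 6.11 and 6.13 in P15. As for *RRM1*, P3 was highest, P15 lowest and P0 and P7 overlapped. *TYMS* rose by 0.22 (SE 0.04) in P3 vs P0 (limma, adjusted p = 9.5e-05), fell by 0.20 in P7 vs P3 (adjusted p = 0.00054) and by 0.70 in P15 vs P7 (adjusted p = 1.7e-13), and was lower in P15 than in P0 by -0.68 (adjusted p = 4.2e-13). It shares 39.9% of its exon bases with *ENOSF1*, a mitochondrial enzyme gene on the opposite strand, and without strand their reads cannot be told apart there. *ENOSF1* differed by -0.08 in P3 vs P0 (adjusted p = 0.23) and by 0.18 in P15 vs P0 (adjusted p = 0.0043), and so did not follow *TYMS*.

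Counted over the 10 genes, 6 rose and 2 fell in P3 vs P0, while 31.4% of all tested genes rose and 37.3% fell (68.7% in either direction). The median log2 fold change was 0.18 over the 10 genes and -0.02 over all tested genes. In P7 vs P0, 4 rose and 2 fell (27.9% and 34.2% of all tested genes, 62.1% together), with medians of 0.02 and -0.02. In P7 vs P3, none rose and 4 fell (30.3% and 28.0%, 58.2% together), with medians of -0.10 and 0.01. The 4 that fell were *RRM1*, *RRM2*, *TYMS* and *SAMHD1*. In P15 vs P7, 3 rose and 7 fell (46.3% and 40.1%), with medians of -0.41 and 0.06, and in P15 vs P0, 3 rose and 6 fell (45.3% and 40.9%), with medians of -0.26 and 0.04. As 86.4% and 86.2% of all tested genes changed in the 2 last comparisons, the number of members called there, 10 and 9 of 10, is close to the background. At 2-fold, 1 member rose (*CDA*) and 2 fell (*DCK*, *SAMHD1*) in P15 vs P0, where 12.1% of all tested genes rose and 11.4% fell by as much (23.6% together), and the same 3 passed in P15 vs P7 (13.4% rose and 12.1% fell, 25.5% together). Of these 3, *CDA* passed the filter for testing only through its P15 level. With a pseudocount of 5, 1 of the 3 passed in P15 vs P0, namely *SAMHD1*, with *DCK* at -0.99 and *CDA* at 0.51. No member changed by 2-fold in the other comparisons, where 4.46% (P3 vs P0), 3.37% (P7 vs P0) and 1.83% (P7 vs P3) of tested genes did. The libraries of the phases compared did not overlap for 6 members in P3 vs P0 (60.1% of all tested genes), 4 in P7 vs P0 (52.6%), 5 in P7 vs P3 (51.9%), 9 in P15 vs P7 (80.8%) and 9 in P15 vs P0 (79.7%). P3, P7 and P15 were each compared with the same P0 libraries.

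**Figure D2:**
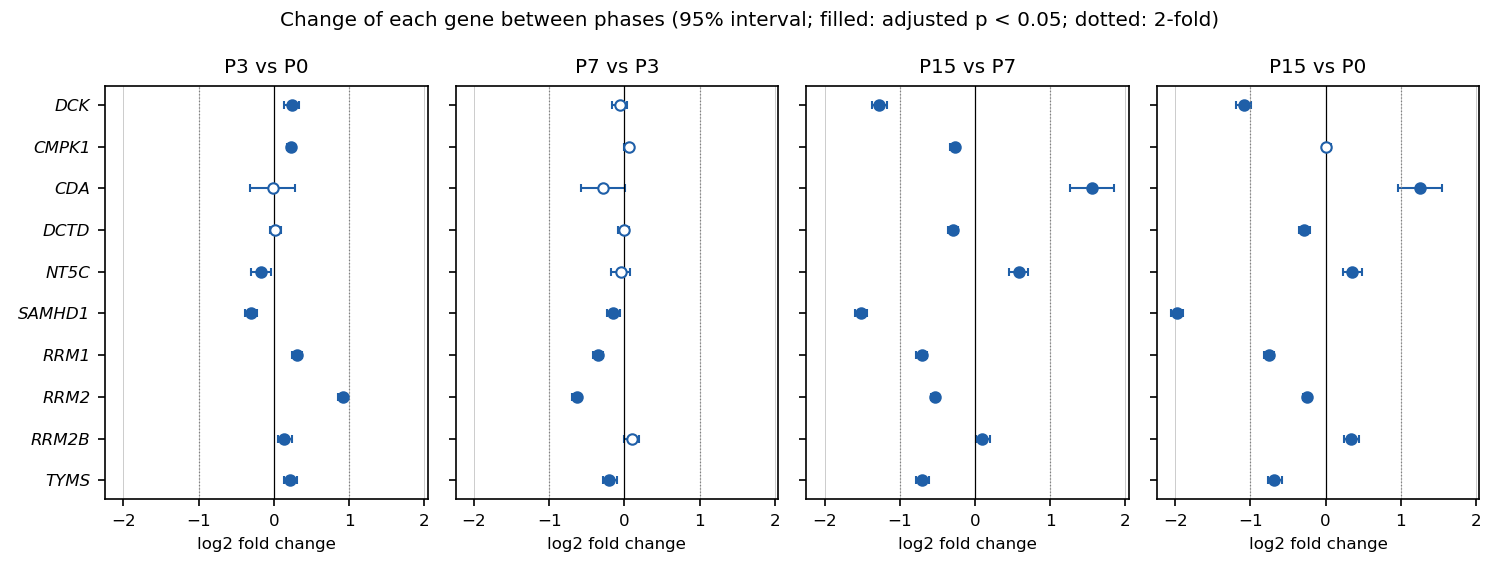
Log2 fold change of each gene (x axis; points with 95% intervals from limma) in P3 vs P0, P7 vs P3, P15 vs P7 and P15 vs P0; filled points have an adjusted p below 0.05 and the dotted lines mark 2-fold. *RRM2* moved most in P3 vs P0 (0.92) and in P7 vs P3 (-0.63), and *DCK*, *SAMHD1* and *CDA* lie beyond the dotted lines in both P15 panels.

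The balance between members was followed as the difference of their log2 values within each library, which is a description without a test. Such a difference holds the length of both genes, so only its shift between phases is read here. *DCK* minus *CDA* was 4.99 ± 0.22 in P0, 5.24 ± 0.36 in P3, 5.47 ± 0.11 in P7, with 2.65 ± 0.20 in P15 (SD, n = 4), and every P15 library (2.40 to 2.82) was below every other (4.78 to 5.78). *DCK* minus *NT5C* shifted from 1.12 ± 0.13 in P0 to 1.53 ± 0.13 in P3 and -0.32 ± 0.05 in P15. Both differences were lowest in P15, in all 4 libraries. *DCK* minus *SAMHD1* went the other way, from -1.36 ± 0.08 in P0 to -0.82 ± 0.12 in P3, -0.74 ± 0.04 in P7 and -0.48 ± 0.07 in P15. *RRM1* minus *DCK* varied less, from 2.09 ± 0.03 in P7 to 2.64 ± 0.03 in P15.

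Within ribonucleotide reductase, *RRM2* minus *RRM1* was 0.57 ± 0.05 in P0, 1.17 ± 0.06 in P3, 0.89 ± 0.05 in P7, with 1.07 ± 0.05 in P15. The 4 P0 libraries (0.51 to 0.62) were below all 12 later ones (0.82 to 1.24), so that the small subunit transcript remained shifted upward against the large one in P15, where both had fallen. *RRM2B* minus *RRM2* was lowest in P3, at -4.25 ± 0.09, and highest in P15, at -2.89 ± 0.04. Per kilobase of the canonical transcript, *RRM2B* made up 5.64% ± 0.36 of the small subunit transcripts in P0, 3.38% ± 0.21 in P3, 5.49% ± 0.19 in P7, with 8.29% ± 0.24 in P15 (SD, n = 4). This share depends on the length used, and over all annotated exons it was 12.9% in P0, 8.01% in P3, 12.6% in P7, with 18.4% in P15, in the same order of phases. *TYMS* minus *RRM2* was -1.96 ± 0.06 in P0 and -2.65 ± 0.09 in P3 and stayed below the P0 values later, at -2.22 ± 0.02 in P7 and -2.39 ± 0.07 in P15.

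**Figure D3:**
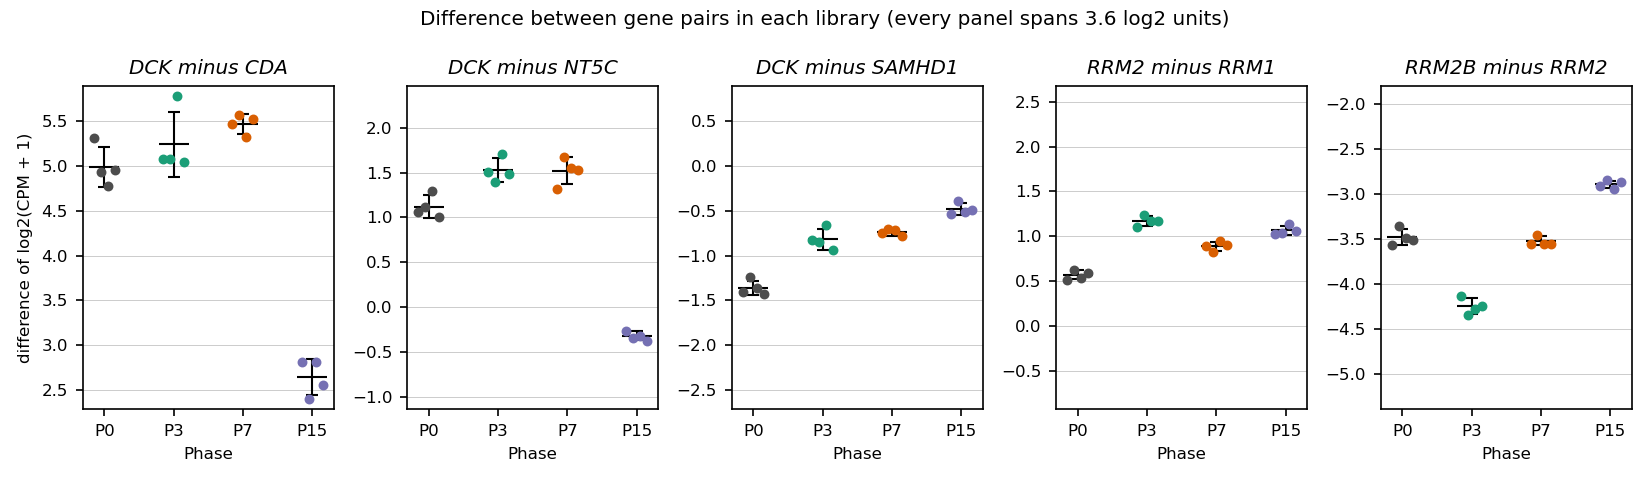
Difference of log2(CPM + 1) between 2 genes in each library (points, 4 per phase), with mean and SD (n = 4); every panel spans 3.6 log2 units. *DCK* minus *CDA* and *DCK* minus *NT5C* are lowest in P15 (2.65 and -0.32), *RRM2* minus *RRM1* is lowest in P0 (0.57), and *RRM2B* minus *RRM2* is lowest in P3 (-4.25).

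Compared per kilobase of canonical transcript, the levels in P0 were highest for *RRM2* with 126.69 ± 2.20 CPM per kb, followed by *RRM1* with 88.76 ± 4.10 and *TYMS* with 65.39 ± 3.72. *DCTD* (57.78 ± 0.69) and *CMPK1* (55.50 ± 0.80) came next, then *SAMHD1* (31.09 ± 0.52), *NT5C* (27.91 ± 2.38) and *DCK* (22.30 ± 1.6). *RRM2B* had 7.57 ± 0.43 and *CDA* 1.00 ± 0.42 CPM per kb. Among neighbours in this order, *SAMHD1* and *NT5C* differed least against their spread, by little more than the sum of their SDs. In P15, *DCK* (10.23 ± 0.33) and *RRM2B* (9.64 ± 0.28) differed by less than the sum of their SDs, *SAMHD1* (7.80 ± 0.48) was below both, and *CDA* was still lowest at 4.06 ± 0.78. The order depends on the length used, as over all annotated exons *RRM1* (65.88) exceeded *RRM2* (45.10) in P0.

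The other genes of the pathway were taken from lists of known kinases, breakdown enzymes, transporters and suppliers of nucleotides. Beside the counts of these and later lists stand the shares of all tested genes. In P3 vs P0, 31.4% rose and 37.3% fell, and in P15 vs P0, 45.3% rose and 40.9% fell. Of 11 other nucleoside and nucleotide kinases, 3 rose and 3 fell in P3 vs P0, and 5 rose and 6 fell in P15 vs P0, with a median of -0.15 (all tested genes 0.04). The cytosolic thymidine kinase *TK1* fell by 1.16 (limma, adjusted p = 6e-20) and the mitochondrial UMP/CMP kinase *CMPK2* by 1.08 (adjusted p = 9.1e-12), whereas the uridine-cytidine kinase *UCK2* rose by 0.71 (adjusted p = 1.3e-14). *TK1* fell most of the 11 kinases. As 45.3% of all tested genes rose and 40.9% fell, these counts are not read as a change shared with *DCK*. Reads of the near-identical *NME1* and *NME2* may be split between them.

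Of 12 other nucleotidases and nucleoside breakdown enzymes, 10 were tested. In P3 vs P0, 3 rose and 4 fell. In P15 vs P0, 6 rose and 2 fell, with a median of 1.03 (45.3% and 40.9% of all tested genes, with a median of 0.04). By 2-fold or more, 12.1% of all tested genes rose and 11.4% fell. The 5 that rose by 2-fold or more were the thymidine phosphorylase *TYMP* (3.93), the mitochondrial 5′-nucleotidase *NT5M* (3.2), the surface 5′-nucleotidase *NT5E* (2.61), the uridine phosphorylase *UPP1* (2.07) and the adenosine deaminase *ADA* (1.90), with adjusted p-values of 1.4e-15 or less. Mean log2 values of *NT5M* were 0.48, 0.53 and 0.65 in P0, P3 and P7 and 3.68 in P15. It passed the filter for testing only through P15, and these counts include it. *NT5E* had already risen by 1.74 in P3 vs P0 (adjusted p = 5.4e-22). The cytosolic nucleotidase *NT5C2* fell by 1.52 (adjusted p = 1.5e-20), opposite to *NT5C*.

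Gemcitabine enters cells through nucleoside transporters, and 8 of 11 transporters and efflux pumps were tested. In P3 vs P0, 3 rose and 3 fell. In P15 vs P0, 6 rose and 2 fell, with a median of 0.58 (45.3% and 40.9% of all tested genes, with a median of 0.04). The equilibrative transporter *SLC29A1* rose from 6.32 in P0 to 7.08 in P15 (0.76, limma, adjusted p = 2.3e-16), *SLC29A2* rose by 2.78 (adjusted p = 5.6e-18) and *SLC29A4* by 2.90 (adjusted p = 7.2e-19). Mean log2 values of *SLC29A4* were 0.7, 0.55 and 0.85 in P0, P3 and P7 and 3.6 in P15. It passed the filter for testing only through P15, and the counts above include it. Among the efflux pumps, *ABCG2* fell by 0.70 (adjusted p = 3.2e-07). In contrast, *ABCC5* rose by 0.66 (adjusted p = 3e-12), *ABCC10* by 0.5 (adjusted p = 1e-08) and *ABCC4* by 0.39 (adjusted p = 3.1e-10). *ABCC4* was also higher by 1.18 in P7 vs P0 (adjusted p = 1.3e-18). The concentrative transporters *SLC28A1*, *SLC28A2* and *SLC28A3* were below the level for testing, with phase means of 0.89 or less on the log2 scale.

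Of 16 genes of nucleotide supply, 7 rose and 8 fell in P15 vs P0, with a median of -0.06. Thioredoxin reductase *TXNRD1*, which keeps the reductant of ribonucleotide reductase in use, rose by 1.09 (limma, adjusted p = 1.8e-18), and *UMPS*, which makes UMP in the last steps of pyrimidine synthesis, fell by 0.75 (adjusted p = 4.3e-14). In P3 vs P0, 6 rose and 9 fell, with a median of -0.20.

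*RRM1*, *RRM2* and *TYMS* are made mainly in S phase, so genes of DNA replication were read beside them. Of 22 S phase genes, 7 rose and 6 fell in P3 vs P0, with a median of -0.03, where the 3 members rose. In P7 vs P3 none of the 22 rose and 17 fell (median -0.22), where 30.3% and 28.0% of all tested genes did. In P15 vs P0, 3 rose and 17 fell (median -0.94), against 45.3% and 40.9%. The largest decreases in P15 were those of cyclin E2 (*CCNE2*, -2.31), the sliding clamp *PCNA* (-2.07), the helicase subunit *MCM4* (-1.89), the licensing factor *CDC6* (-1.84) and *GINS1* (-1.54), and *CDT1* rose most (0.61). The decreases of *RRM1* (-0.75), *TYMS* (-0.68) and *RRM2* (-0.25) in P15 vs P0 were thus each smaller than the median of the list. The part of a change in cycling in the values of *RRM1*, *RRM2* and *TYMS* was not tested. Of 19 tested DNA polymerase and checkpoint genes, 9 rose and 6 fell in P3 vs P0 and 4 rose and 12 fell in P15 vs P0 (median -0.37), with *POLD1* at 0.70 and *POLA2* (-1.17) and *CDC25A* (-1.16) lowest. Those that fell in P3 vs P0 numbered 3 without P0 replicate 3 and with every gene above 0 kept.

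*RRM2B* is a known p53 target and *SAMHD1* an interferon-inducible gene, and both lists were mixed. Of 16 p53 target genes, 3 rose and 9 fell in P3 vs P0, and 9 rose and 6 fell in P15 vs P0 (median 0.12). *BBC3* (2.91), *GDF15* (2.26) and *PLK3* (1.18) rose by 2-fold or more in P15, and *FAS* fell by 1.17. With all libraries given 1 common median, 5 p53 targets rose in P3 vs P0. Of 18 interferon-stimulated genes, 5 rose and 12 fell in P3 vs P0, and 4 rose and 12 fell in P15 vs P0 (median -1.33). The decreases reached -6.87 for *IFI27*, -5.36 for *IFITM1*, -5.32 for *BST2*, -4.36 for *MX2* and -3.39 for *MX1*, while *IFIT1* (1.25) and *IFIT2* (1.04) rose. In the genes tested at 1 CPM or more in all 16 libraries, 7 of the list fell in P3 vs P0.

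**Figure D4:**
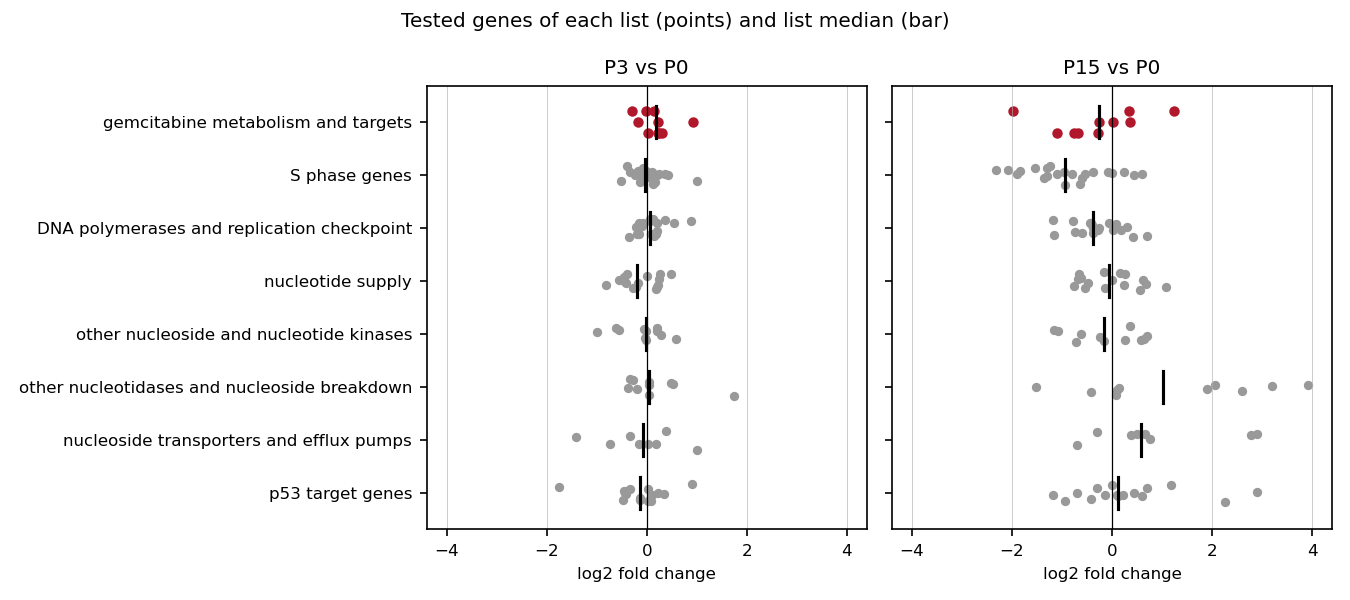
Log2 fold change (x axis) of each tested gene of the 10 members (red) and of 7 other lists (grey), with the list median (black bar), in P3 vs P0 and P15 vs P0. The S phase genes have a median of -0.03 in P3 vs P0 and -0.94 in P15 vs P0, and the other nucleotidases and breakdown enzymes one of 1.03 in P15 vs P0.

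The tested genes within 1 Mb of each member were compared as well. Of all tested genes, 45.3% rose and 40.9% fell in P15 vs P0. Around *DCK*, 5 of 7 tested neighbours fell and 2 rose in P15 vs P0, with a median of -1.14, close to the -1.09 of *DCK*. They ranged from -4.22 for *SMR3B* to 0.55 for *RUFY3*. Around *SAMHD1*, 11 of 17 fell and 5 rose, with a median of -0.32, and 1 neighbour was lower than *SAMHD1*. Around *RRM1*, 6 of 8 fell (median -0.46), around *TYMS*, none of 5 fell and 2 rose (median 0.02), and around *RRM2*, 4 of 15 fell and 9 rose (median 0.24). *TYMS* and *RRM2* fell in P15, while the median of their neighbours did not. The part of the chromosome region in the change of any member was not tested.

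For the 3 members with a 2-fold change, the genes with the most similar profile were taken by Pearson correlation over the 16 libraries, which share the large step to P15. They were *ZDHHC6* (r = 0.9948), *LINC01127* (0.9947) and *FAS* (0.9939) for *DCK*, *VPS18* (0.9969), *DNAJA1* (0.9965) and *MALT1* (0.9963) for *SAMHD1*, and *RNASEH1-AS1* (0.9676), *NPM3* (0.963) and *ARMC10* (0.9609) for *CDA*. The profile of *DCK* was for example met by *ZDHHC6* with phase means of 5.95, 6.28, 6.14 and 4.51 in P0, P3, P7 and P15. *CDA* had the largest spread of these 3 genes, with SDs of 0.11 to 0.29 within phases.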

How the data were processed

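RNA was sequenced from 16 libraries, 4 each of phases P0, P3, P7 and P15, grouped by the phase in the labels. The authors mapped the reads to GRCh38 with STAR (2.6.1a) and obtained gene counts with featureCounts. The deposited unit is log2(CPM + 1), that is a pseudocount of 1, rounded to 2 decimals, for 39007 symbols. The quantile normalization and median centring named in the methods were not seen in these values, which summed to 999894 to 1000095 CPM per library. The annotation release, the strand setting and the handling of reads that match several genes are not given in the sources used here. Of the symbols, 27 are dates and 2 names are repeated.

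The depth of 33.7 to 50 M counts was estimated from the spacing of low values. As rounding hides whole reads at higher levels, no count model was used. Genes with a mean above 1 CPM (13249) were fitted with limma 3.58.1 in R 4.3.3 with a variance trend, 1 coefficient per phase over all 16 libraries, and Benjamini-Hochberg adjustment. On values simulated for P15 vs P0 in 13223 genes, 93 of 99 genes changed by 0.5 on the log2 scale (93.9%) and all 100 changed by 1 were recovered, with 7 false calls. The simulation let few genes change, up and down alike, and gave all genes a common spread between replicates. In the data, 86.2% of tested genes were called in P15 vs P0, so these rates need not hold there. Tables and figures were made in Python 3.11.15 with numpy 2.4.6, pandas 2.3.3 and matplotlib 3.10.9. Gene positions, lengths and overlaps are from GENCODE 44 on GRCh38, which may differ from the annotation the authors counted on, and 12071 tested symbols (91.1%) matched it. Promoters are from RefSeq (GRCh38.p14).

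The members and lists were chosen with earlier results of these data known. A gene of these lists is not reported here, and the counts leave it out. Named from each list are the called gene that rose most and the one that fell most in P15 vs P0, up to 5 per direction at 2-fold or more. *SLC29A1*, the *SLC28* transporters, the *ABCC* pumps, the marker genes and the highest and lowest neighbours were added after their values were seen. As alternatives, the fit was repeated without the variance trend, on the phases of a comparison alone, with a replicate block, with quantile normalization or 1 common median, with pseudocounts of 0.1 and 5, with other filters on low values, and without each library in turn.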

Additional observations from a re-analysis of the deposited data

Results flagged for a closer look

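Within each phase, the 4 values of each of the 10 genes were checked with Dixon's ratio, the gap of the highest or lowest library to its nearest neighbour divided by the range of the phase. Of 40 such groups, 4 exceeded the 95% critical value, where chance alone gives about 2 (1 in 20). *CDA* in P3 had a ratio of 0.98, with replicate 3 at 0.39 and the other libraries at 0.96 to 0.97. *NT5C* in P7 had a ratio of 0.90, with replicate 1 at 4.63 above the others. *RRM1* in P15 had a ratio of 0.87, with replicate 3 at 7.32 below the others. *RRM2B* in P3 had a ratio of 0.86, with replicate 1 at 5.45 above the others. These were 4 different genes, and the library that stood apart was replicate 3 in 2 of them and replicate 1 in the other 2. The cause was not tested.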

How the results depend on the processing

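Of 1345 values for 50 comparisons of single members under up to 27 alternatives, 1311 kept their direction and their side of the threshold, 13 lost the call, 9 gained it and 12 changed sign, and 38 comparisons did not change under any alternative. With a pseudocount of 5, the members called at 2-fold in P15 vs P0 went from 3 to 1. The 12 changes of sign all concerned differences that did not pass the threshold. They were *CMPK1* in P15 vs P0 after the shift to the same median (-0.0075), *CDA* in P3 vs P0 with quantile normalization (0.02) and without P0 replicate 2 (0.05), P0 replicate 3 (0.06) or P3 replicate 3 (0.13), *DCTD* with quantile normalization in P3 vs P0 (-0.01) and P7 vs P3 (0.02), *DCTD* without P7 replicate 3 in P7 vs P0 (-0.0025) and without P3 replicate 3 (0.0050), P7 replicate 1 (0.0008) or P7 replicate 4 (0.0075) in P7 vs P3, and *TYMS* in P7 vs P0 without P0 replicate 2 (-0.01). With each library left out in turn, these differences ranged from -0.14 to 0.13 (*CDA*), from -0.0025 to 0.03 (*DCTD*, P7 vs P0), from -0.02 to 0.0075 (*DCTD*, P7 vs P3) and from -0.01 to 0.05 (*TYMS*). Quantile normalization added the calls of *CMPK1* in P7 vs P3 and P15 vs P0 (0.07 and adjusted p = 0.026 in both) and of *RRM2B* in P7 vs P3 (adjusted p = 0.035), the last also without P3 replicate 1 (0.026), and *CMPK1* in P7 vs P3 also passed with these phases alone (0.046) and without P15 replicate 3 (0.048). *CDA* could not be tested with 1 CPM required in all 16 libraries.

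Replicate numbers in the sample descriptions and titles differ for 14 of 16 libraries, and neither pairs the samples. Deviations of same-numbered libraries of 2 phases correlated at -0.15 to 0.22 (descriptions) and -0.12 to 0.22 (titles), over 0.1 in 1 of 24 pairs each. With either number as a replicate block, 8, 6, 4 and 9 members were called in P3 vs P0, P7 vs P0, P7 vs P3 and P15 vs P0, as without it. In P15 vs P7 the block gave 10 with description numbers and 9 with title numbers, *RRM2B* being lost (adjusted p = 0.054).

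Over all genes, the number called at 2-fold depended on the filter and the pseudocount. With 1 CPM in all libraries, a pseudocount of 0.1 and one of 5, it was 381, 939 and 290 in P3 vs P0 (591 otherwise), 263, 711 and 203 in P7 vs P0 (447) and 138, 445 and 106 in P7 vs P3 (243). A pseudocount of 5 gave 2166 in P15 vs P7 (3376) and 1976 in P15 vs P0 (3126). Depth limits *CDA*, whose mean was below 1 CPM in P0, P3 and P7. The library titles end in S numbers, some of them shared between phases, whose meaning is not given. Sequencing runs are not given, so a run and a phase cannot be told apart.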
